A study of Mus musculus with 9 samples.

Results

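Genes that respond to or carry bone morphogenetic protein (BMP) signals were followed in RNA from mouse pancreatic neuroendocrine tumours grown under the skin or in the liver. The set holds 10 of the 21944 genes kept from the expression table: the 4 inhibitor-of-DNA-binding genes Id1, Id2, Id3 and Id4, the pathway inhibitors Smad6, Smad7 and Bambi, and the ligands Bmp2, Bmp4 and Bmp6. Each was found by its gene symbol, and each symbol had 1 row. The genes were chosen on a known feature of these same data, the higher Id3 level of liver metastases, so their values in metastases are a description and carry no test. The comparison between the subcutaneous tumours played no part in that choice and was tested.

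The 9 libraries fall into 3 groups of 3. Liver metastases 1, 2 and 3 came from N134-RHAMMB cells, and subcutaneous tumours came from N134-RHAMMB cells (tumours 1, 2 and 4) and from N134 cells (tumours 1, 2 and 3). N134 is a mouse pancreatic neuroendocrine tumour line, and N134-RHAMMB is its derivative carries the name of RHAMMB, a form of RHAMM, the hyaluronan receptor that the gene Hmmr encodes. How RHAMMB was introduced is not given in the sources used here, and each group rests on a single line. The host in all groups was the NSG mouse (NOD.Cg-PrkdcscidIl2rgtm1Wjl/SzJ), which lacks mature lymphocytes but keeps its own fibroblasts, vessels, macrophages and liver cells. Markers of fibroblasts, vessels and macrophages were found in every library, and those of liver cells are given by group below. Cells were given under the skin or through the tail vein, so the organ and the route of injection cannot be told apart. The labels do not say that the samples of a group came from separate animals. The p-values therefore cover only sample-to-sample spread within these groups, part or all of which may be technical.

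BMPs are secreted ligands of the transforming growth factor beta (TGF-beta) family. They bind paired serine-threonine kinase receptors that phosphorylate SMAD1, SMAD5 and the SMAD encoded by Smad9, which enter the nucleus with SMAD4. The ID genes and the inhibitory SMADs are among the most direct targets of these complexes: ID proteins lack a DNA-binding region and tie up basic helix-loop-helix (bHLH) factors, above all the E proteins, while SMAD6 and SMAD7 and the decoy receptor BAMBI feed back on the receptors. In the liver the pathway is known for iron sensing, in which BMP6 and BMP2 from sinusoidal endothelium drive hepcidin in hepatocytes, and stellate cells and endothelium are sources of other ligands of the family.

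The start regions of 3 of the genes are shown because SMAD complexes are known to act on short motifs near ID and inhibitory SMAD genes. RefSeq promoters on GRCm38.p6 (250 bases before to 50 bases after the start) were found for 6 of the genes, namely Id2, Id3, Id4, Smad6, Bmp4 and Bmp6. They were searched on both strands for the palindromic SMAD element GTCTAGAC, the GC-rich element GGCGCC and the short SMAD box CAGAC or GTCTG. Capitals mark the matches. The letters of the short box do not occur inside either longer element, and none of these 6 windows held both a box and a longer element.

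Id3, chr4:136143572-136143871, + strand: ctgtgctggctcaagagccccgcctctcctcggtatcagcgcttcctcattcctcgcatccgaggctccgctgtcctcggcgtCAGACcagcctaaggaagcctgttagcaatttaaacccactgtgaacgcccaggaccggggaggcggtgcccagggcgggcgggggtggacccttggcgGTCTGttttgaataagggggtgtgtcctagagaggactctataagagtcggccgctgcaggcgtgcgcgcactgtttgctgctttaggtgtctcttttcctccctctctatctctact

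Id2, chr12:25096043-25096342, - strand: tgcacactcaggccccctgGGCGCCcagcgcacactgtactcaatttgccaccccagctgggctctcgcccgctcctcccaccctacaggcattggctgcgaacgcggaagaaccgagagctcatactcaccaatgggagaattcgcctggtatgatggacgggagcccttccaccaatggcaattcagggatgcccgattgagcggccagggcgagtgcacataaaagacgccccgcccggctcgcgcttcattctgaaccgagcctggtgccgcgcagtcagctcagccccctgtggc

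Smad6, chr9:64022010-64022309, - strand: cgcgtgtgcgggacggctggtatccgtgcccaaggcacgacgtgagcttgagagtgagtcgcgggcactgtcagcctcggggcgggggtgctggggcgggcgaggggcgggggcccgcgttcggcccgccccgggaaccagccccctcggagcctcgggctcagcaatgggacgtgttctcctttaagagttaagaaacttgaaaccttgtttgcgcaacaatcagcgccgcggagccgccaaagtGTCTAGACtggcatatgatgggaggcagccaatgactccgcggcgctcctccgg

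In the Smad6 window the palindrome began 4 bases before the start and ran across it. That motif was found in 0.213% of 32851 promoters of this length. Id2 held GGCGCC at -231 and Id4 at -148, against 11.9% of all promoters. Id3 held the short box at -167 and -68, and Bmp6 held 1 at -119, against 49.6% of all promoters. Positions count from the RefSeq start to the first base of the match as printed. For Id3 the whole window, from 136143572, lies inside the gene span given below, which begins at 136143497. The bases before that span were not searched. The Bmp4 window held none of the 3 motifs. These matches describe letters in a window and not binding.

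Expression was deposited as FPKM, fragments scaled to the transcript length in kilobases and to M (mega) fragments mapped, a level per length that allows genes to be compared with each other. The estimated depth was 14.4 to 18.3 M fragments per library, at which 1 fragment in a transcript of 2 kb is worth 0.0273 to 0.0348 FPKM. All 90 values of the 10 genes carried the status OK. Differences between groups are in log2(FPKM + 1), which understates the difference of low genes. Id1, Id2, Id3, Id4, Smad7 and Bambi were among the 12854 genes that reached 1 FPKM in at least 3 libraries and entered the test, and Smad6, Bmp2, Bmp4 and Bmp6 lay under that filter. The mouse gene Hmmr stood at 36.0 to 43.3 FPKM in metastases, 49.2 to 51.3 FPKM in the N134-RHAMMB tumours, and 39.2 to 44.9 FPKM in N134 tumours, and its difference of 0.25 between the subcutaneous groups did not pass limma's moderated test (adjusted p = 0.354). The table's Hmmr row cannot show whether RHAMMB was introduced as a sequence that it counts.

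Id3 showed the widest separation among the ID genes. Levels of 17.6, 13.7 and 17.1 FPKM were listed in metastases 1, 2 and 3, with 5.83, 5.44 and 6.10 FPKM for N134-RHAMMB tumours 1, 2 and 4, and 5.77, 7.59 and 7.85 FPKM for N134 tumours 1, 2 and 3. Every metastasis was above every subcutaneous tumour, and the subcutaneous groups overlapped each other. The metastases averaged 16.2 ± 2.12 FPKM, against 5.79 ± 0.328 FPKM in the N134-RHAMMB tumours, and 7.07 ± 1.13 FPKM in N134 tumours (SD, n = 3 each). The ratio of means was 2.79 against N134-RHAMMB tumours and 2.29 against N134 tumours, with log2 differences of 1.33 and 1.09 (SE 0.154 each). The gene lies on chromosome 4 of GRCm38 at 136143497 to 136145755. Its product is known in lymphocytes, vessels and neural crest.

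Id2, whose product restrains differentiation in many lineages, was the most abundant of the 10 genes in every library, and lies on chromosome 12 at 25093801 to 25096092. Its levels were 48.2, 29.0 and 44.4 FPKM in metastases, 29.9, 29.2 and 28.6 FPKM in the N134-RHAMMB tumours, and 21.9, 25.2 and 21.0 FPKM in N134 tumours. Metastases 1 and 3 stood above all subcutaneous tumours, while metastasis 2 lay inside the range of the N134-RHAMMB tumours. All metastases were above all N134 tumours, with means of 40.5 ± 10.2 and 22.7 ± 2.24 FPKM (SD, n = 3 each) and a log2 difference of 0.78 (SE 0.172). Against N134-RHAMMB tumours, which averaged 29.2 ± 0.630 FPKM, the difference was 0.43. The order of the means was metastases, N134-RHAMMB tumours and N134 tumours, and only the first neighbours in that order overlapped.

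Id1, a gene of vessel and tumour growth and a textbook reporter of BMP signalling, was the lowest of the ID genes on average, and lies on chromosome 2 at 152736251 to 152737410. The gene had 5.68, 4.17 and 7.65 FPKM in metastases, 3.18, 4.22 and 2.72 FPKM in the N134-RHAMMB tumours, and 3.87, 4.36 and 3.73 FPKM in N134 tumours. Metastases 1 and 3 were above all 6 subcutaneous tumours, and metastasis 2 fell within their range, so the groups overlapped. The means were 5.83 ± 1.74, 3.37 ± 0.765 and 3.99 ± 0.328 FPKM (SD, n = 3 each). The log2 difference of metastases was 0.63 from N134-RHAMMB tumours and 0.43 from N134 tumours (SE 0.207 each).

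Id4, the ID gene that departs most from the others in its partners and sites of expression, did not separate the groups, and lies on chromosome 13 at 48261427 to 48264036. Levels were 13.2, 4.80 and 10.98 FPKM in metastases, 7.86, 5.50 and 8.98 FPKM in the N134-RHAMMB tumours, and 9.68, 6.55 and 7.85 FPKM in N134 tumours. Metastasis 2 had the lowest Id4 level of all 9 libraries and metastases 1 and 3 the highest. The log2 differences of metastases, 0.26 and 0.15, were below their SE of 0.311. Without metastasis 1 the difference from N134 tumours was -0.10, and without metastasis 2 it was 0.54.

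Smad6, the inhibitory SMAD that acts mainly on BMP receptors, was low everywhere and highest in the metastases. Its levels were 1.43, 1.06 and 0.983 FPKM in metastases, 0.106, 0.146 and 0.184 FPKM in the N134-RHAMMB tumours, and 0.193, 0.382 and 0.208 FPKM in N134 tumours. No group overlapped another. The means were 1.16 ± 0.239, 0.145 ± 0.0393 and 0.261 ± 0.105 FPKM (SD, n = 3 each), a ratio of 7.97 for metastases over N134-RHAMMB tumours and 4.43 over N134 tumours. The locus spans 63953076 to 64022059 of chromosome 9 in GRCm38.

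Smad7, which blocks receptors of both the TGF-beta and the BMP branch, did not follow Smad6. Its levels were 3.08, 3.02 and 1.94 FPKM in metastases, 2.04, 2.11 and 4.94 FPKM in the N134-RHAMMB tumours, and 4.48, 4.42 and 4.29 FPKM in N134 tumours. All metastases were below all N134 tumours, with a log2 difference of -0.57 (SE 0.255), and overlapped the N134-RHAMMB tumours. Against N134-RHAMMB tumours the difference was -0.07, and without N134-RHAMMB tumour 4, the highest library for Smad7, it was 0.24; without metastasis 3 it was 0.08.

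Bambi, a receptor-like protein without a kinase that dampens BMP, activin and TGF-beta signals, was the highest of the inhibitors and ran opposite to Id3. The gene had 9.28, 6.82 and 7.72 FPKM in metastases, 11.4, 14.2 and 12.1 FPKM in the N134-RHAMMB tumours, and 9.86, 12.6 and 11.3 FPKM in N134 tumours. Every metastasis was below every subcutaneous tumour, although metastasis 1 and N134 tumour 1 lay close together. The means were 7.94 ± 1.25, 12.6 ± 1.44 and 11.3 ± 1.38 FPKM (SD, n = 3 each). The log2 differences of metastases were -0.60 from N134-RHAMMB tumours and -0.46 from N134 tumours (SE 0.153 each).

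The 3 ligands had the lowest levels of the set, averaged over the 9 libraries. Bmp4, a ligand of mesenchyme and vessels, stood at 1.29, 0.655 and 1.15 FPKM in metastases, had 0.0947 FPKM in N134-RHAMMB tumour 1, 0.321 FPKM in tumour 4 and a listed 0 in tumour 2, and stood at 0.0805, 0.178 and 0.343 FPKM in N134 tumours. Every metastasis was above every subcutaneous tumour, and the log2 differences were 0.83 and 0.75. Bmp2, made by endothelium in the liver, stood at 0.189, 0.223 and 0.473 FPKM in metastases, 0.0596, 0.0399 and 0.170 FPKM in the N134-RHAMMB tumours, and 0.0564, 0.150 and 0.157 FPKM in N134 tumours. Again no subcutaneous tumour reached a metastasis, but the nearest values, 0.189 and 0.170 FPKM, were close. By the estimated depth the Bmp2 values stand for about 11.5, 14.5 and 26.8 fragments in metastases, 3.15, 2.34 and 8.66 in N134-RHAMMB tumours, and 3.20, 8.77 and 8.61 in N134 tumours.

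Bmp6, the ligand that reports liver iron, was near the limit of detection. The gene reached 0.296, 0.137 and 0.0858 FPKM in metastases, was listed at 0 in N134-RHAMMB tumours 1 and 2 with 0.0336 FPKM in tumour 4, and stood at 0.148, 0.0603 and 0.0632 FPKM in N134 tumours. The metastases were above the N134-RHAMMB tumours and overlapped the N134 tumours. By the estimated depth the values stand for about 18.2, 9.03 and 4.91 fragments in metastases, 1.73 in N134-RHAMMB tumour 4, and 8.47, 3.58 and 3.49 in N134 tumours, so each difference rests on few fragments. In GRCm38 the ligand genes lie on chromosome 2 at 133552159 to 133562885 (Bmp2), chromosome 14 at 46383520 to 46390669 (Bmp4) and chromosome 13 at 38345716 to 38499728 (Bmp6).

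**Figure D1:**
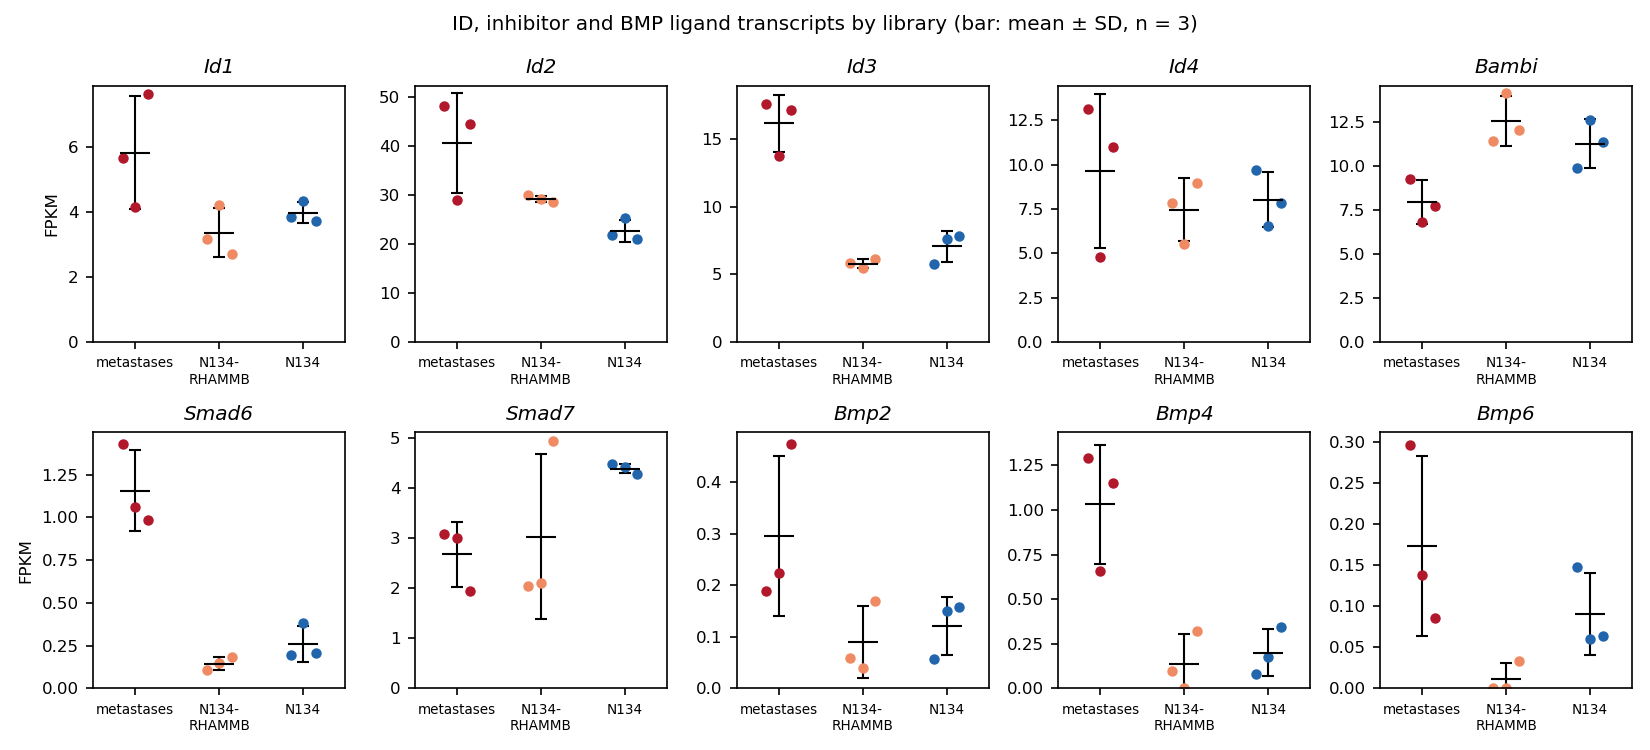
Level of each gene in FPKM (vertical axes, each from 0) in metastases, N134-RHAMMB tumours and N134 tumours; points are libraries and bars are the mean ± SD of 3. Id3, Smad6, Bmp2 and Bmp4 have all metastases above all 6 subcutaneous tumours, Bambi has all metastases below them, and metastasis 2 (middle point) is the lowest metastasis for all 4 ID genes.

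Counted over the set, every metastasis was above every N134-RHAMMB tumour for 5 of the 10 genes (Id3, Smad6, Bmp2, Bmp4 and Bmp6), against 9.2% of the 16905 genes above 0 in at least 3 libraries. Every metastasis was below for 1, Bambi, against 10.8%. Relative to N134 tumours, 5 genes were above in every metastasis (Id2, Id3, Smad6, Bmp2 and Bmp4), against 11.2%, and 2 were below (Smad7 and Bambi), against 14.4%. These shares stand beside the counts only for scale, since the set was selected by the Id3 level of metastases. The median log2 difference of the 10 genes was 0.34 from N134-RHAMMB tumours and 0.31 from N134 tumours, where all genes tested had medians of -0.06 and -0.03. The comparisons with metastases share these libraries and are not independent of each other.

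**Figure D2:**
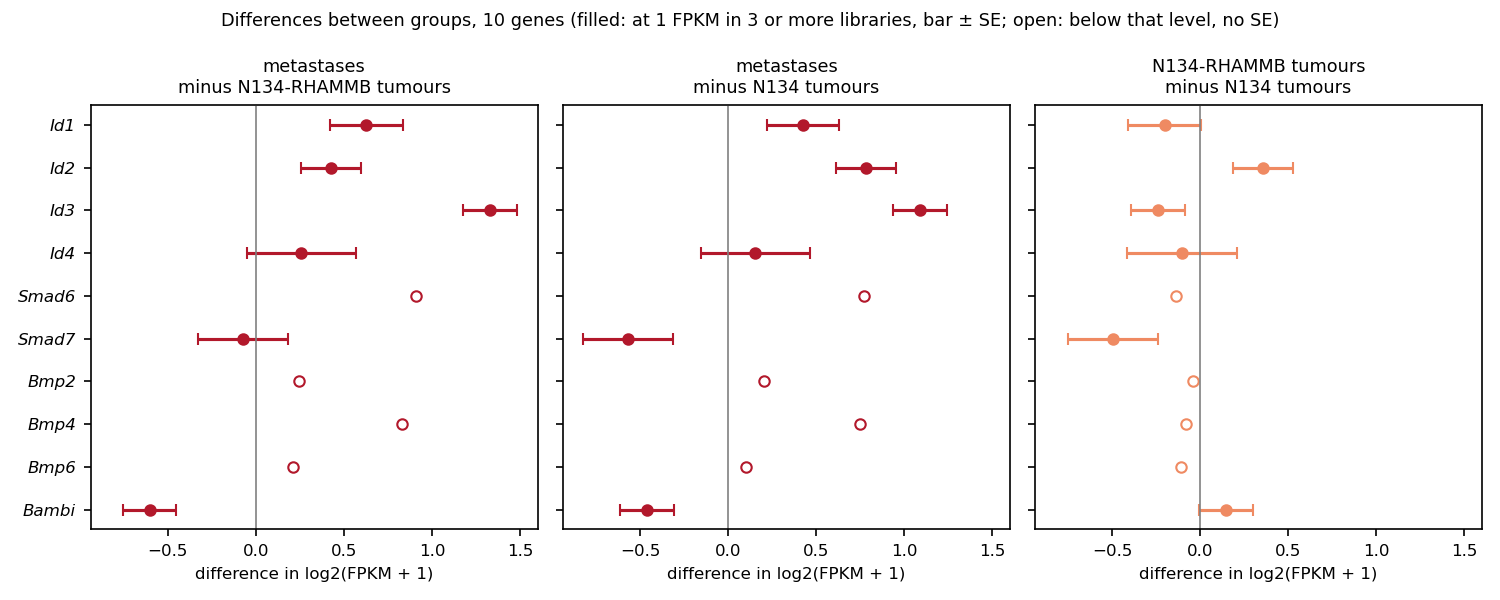
Difference in log2(FPKM + 1) of each gene for metastases minus N134-RHAMMB tumours, metastases minus N134 tumours, and N134-RHAMMB minus N134 tumours (horizontal axes); filled points have ± SE bars, and open points lie under the filter. Id3 has the largest differences in the panels with metastases (1.33 and 1.09), and Bambi lies on the other side of 0 (-0.60 and -0.46).

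N134-RHAMMB and N134 subcutaneous tumours were compared by test. None of the 6 genes tested passed limma's moderated test at an adjusted p below 0.05, and none had an unadjusted p below 0.05. With a weight for each library Id2 and Smad7 passed (limma adjusted p = 0.0163 and 0.0193). Over all genes 25 of 12854 passed, or 0.194%, and 1648 had an unadjusted p below 0.05. Id2 came nearest, with all N134-RHAMMB tumours above all N134 tumours and a log2 difference of 0.36 (95% interval -0.03 to 0.74, adjusted p = 0.425 by limma). Smad7 had a difference of -0.49 (interval -1.06 to 0.07, limma adjusted p = 0.460). The interval for Id3 ran from -0.58 to 0.10 around -0.24, that for Id1 from -0.66 to 0.26 around -0.20, that for Id4 from -0.80 to 0.59 around -0.10, and that for Bambi from -0.20 to 0.48 around 0.14. The limma adjusted p was 0.555 for Id3, 0.738 for Id1, 0.931 for Id4 and 0.748 for Bambi. Differences of the size of the intervals' ends are therefore not excluded by these samples. Every N134-RHAMMB tumour was above every N134 tumour for 1 of the 10 genes (Id2), against 12.5% of all genes, and below for 2 (Smad6 and Bmp6), against 10.7%. The median difference of the 10 genes was -0.11, where that of all genes tested was 0.01.

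The makeup of the ID pool differed between the libraries. The summed level of the 4 ID genes was 84.7, 51.7 and 80.2 FPKM in metastases, 46.8, 44.3 and 46.4 FPKM in the N134-RHAMMB tumours, and 41.2, 43.7 and 40.4 FPKM in N134 tumours. The sum was higher in each metastasis than in any subcutaneous tumour, with metastasis 2 the closest to them. Id2 supplied 51.9% to 65.8% of the sum in every library. Id3 supplied 22.9% ± 3.17 in metastases, 12.6% ± 0.446 in N134-RHAMMB tumours and 16.9% ± 2.74 in N134 tumours (SD, n = 3 each), and was the runner-up to Id2 among all 10 genes in each metastasis.

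The E proteins encoded by Tcf3, Tcf4 and Tcf12, the main bHLH partners of ID proteins, were not higher where the ID genes were. Their summed level was 64.0, 75.0 and 79.0 FPKM in metastases, 79.4, 66.7 and 90.5 FPKM in the N134-RHAMMB tumours, and 106, 82.6 and 85.6 FPKM in N134 tumours. The ratio of the ID sum to the E protein sum was 1.32, 0.689 and 1.01 in metastases, 0.589, 0.664 and 0.513 in N134-RHAMMB tumours, and 0.388, 0.529 and 0.472 in N134 tumours. All metastases had the higher ratio, although metastasis 2 was close to N134-RHAMMB tumour 2. These are ratios of transcripts and say nothing of protein.

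None of the 5 bHLH partners tested passed limma's test in any comparison. Tcf3, which encodes E12 and E47, averaged 15.9 ± 3.11 FPKM in metastases, 15.5 ± 2.88 FPKM in the N134-RHAMMB tumours, and 23.2 ± 3.03 FPKM in N134 tumours (SD, n = 3 each). Its difference from N134 tumours was -0.53 for metastases (limma adjusted p = 0.0969) and -0.55 for N134-RHAMMB tumours (limma adjusted p = 0.233). Tcf4 had its largest difference, -0.41, between metastases and N134 tumours (limma adjusted p = 0.151), and Tcf12 differed by at most 0.11 in size in any comparison. Neurod1, an islet and neuroendocrine bHLH factor, ranged from 52.3 to 70.8 FPKM over the 9 libraries. Hes6, another bHLH gene, ranged from 28.0 to 37.0 FPKM. Neurog3, the bHLH factor of endocrine progenitors, was listed at 0 in all libraries but N134 tumour 2, with 0.0550 FPKM, and lay under the filter.

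**Figure D3:**
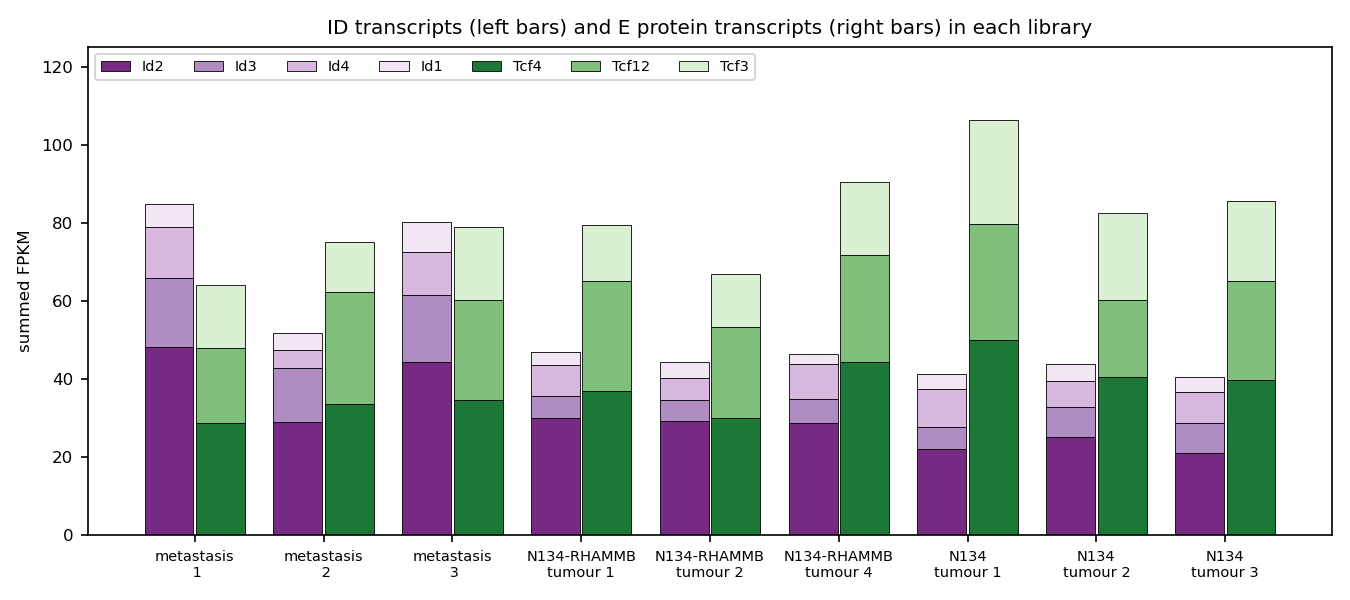
Summed FPKM (vertical axis) of the 4 ID genes (left bar of each pair) and of the E protein genes Tcf4, Tcf12 and Tcf3 (right bar) in each library, stacked by gene. The ID bar exceeds the E protein bar in metastases 1 and 3 (84.7 against 64.0 and 80.2 against 79.0 FPKM) and is the shorter bar in the other libraries.

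The rest of the pathway was read from a list of 102 further genes, sorted by role, of which 58 reached the filter. Against N134-RHAMMB tumours, 4 of the 58 were called higher in metastases and 1 lower, where 5.04% of all genes tested were called higher and 1.52% lower. Against N134 tumours, 4 were called higher and 4 lower, where 5.69% of all genes were called higher and 4.23% lower. The genes called higher were Gdf2, Hamp, Hfe2 and Inhbe in each comparison, all known to be expressed by normal liver. All 4 were under 1 FPKM in all 6 subcutaneous tumours and passed the filter only through the metastases. A higher level in metastases was thus a condition of their being tested, and the genes are described by their levels. In the fit with no filter on low values their limma adjusted p ran from 7.27e-06 to 2.08e-04. The genes were named for their calls in these same data, so these p-values are not separate support for them.

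Gdf2, the gene for BMP9, a ligand of endothelial ALK1 that liver stellate cells secrete, was the one further BMP-type ligand of 11 that reached the filter. The gene had 3.003, 2.11 and 2.02 FPKM in the metastases and 0, 0.0198 and 0.0422 FPKM in the N134-RHAMMB tumours, and was listed at 0 in every N134 tumour. Every metastasis was far above every subcutaneous tumour. Bmp5 lay under the filter, at 1.10, 1.17 and 0.909 FPKM in metastases, 0.171, 0.650 and 0.493 FPKM in the N134-RHAMMB tumours, and 0.147, 0.167 and 0.478 FPKM in N134 tumours. Bmp10, the close relative of BMP9, had 0.370, 0.419 and 0.524 FPKM in metastases and was listed at 0 in all subcutaneous tumours but N134-RHAMMB tumour 2, with 0.0135 FPKM. Bmp5 and Bmp10, like Inhbc and Atoh8, are named here after their values were seen.

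Inhbe, which encodes the activin E subunit of hepatocytes, stood at 2.07, 2.35 and 3.90 FPKM in metastases and at 0.0322, 0.0641 and 0.0347 FPKM in the N134-RHAMMB tumours, and was listed at 0 in every N134 tumour. No subcutaneous tumour came near a metastasis. The related Inhbc, under the filter, stood at 0.917, 1.61 and 2.09 FPKM in metastases and at no more than 0.0370 FPKM in any subcutaneous tumour. Of the other 7 TGF-beta family ligands tested, none passed in any comparison. Tgfb2 had the largest difference between the subcutaneous groups, -1.03, with 0.776, 0.670 and 0.909 FPKM in the N134-RHAMMB tumours, and 2.32, 2.58 and 3.07 FPKM in N134 tumours (limma adjusted p = 0.133).

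Among receptors and co-receptors 15 of 17 were tested. Hfe2, hemojuvelin, the BMP co-receptor of hepatocytes and muscle that is needed for hepcidin, stood at 1.01, 1.33 and 1.37 FPKM in metastases, 0, 0 and 0.254 FPKM in the N134-RHAMMB tumours, and 0, 0 and 0.0400 FPKM in N134 tumours. All metastases were above all subcutaneous tumours. The type I receptor Bmpr1a, ALK3, had 31.9 to 39.5 FPKM in metastases, 35.3 to 35.8 FPKM in the N134-RHAMMB tumours, and 29.3 to 33.1 FPKM in N134 tumours, and did not pass in any comparison. Tgfbr2, the TGF-beta type II receptor, fell by 1.03 in metastases against N134 tumours (limma adjusted p = 0.00748), with 3.94 ± 0.592 and 9.21 ± 1.98 FPKM (SD, n = 3 each). Acvr1c, ALK7, a nodal and activin receptor found in islet cells, fell by 0.62 in the same comparison (limma adjusted p = 0.0154), with 22.8 ± 1.67 and 35.9 ± 7.002 FPKM. Its call was lost without metastasis 1 (adjusted p = 0.0530).

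All 6 receptor-activated and common SMADs were measured, and none passed in any comparison. Smad5 had the largest difference, -0.42 between metastases and N134 tumours (limma adjusted p = 0.0820), with 22.3, 16.1 and 20.9 FPKM in metastases and 27.5, 25.1 and 27.2 FPKM in N134 tumours. Smad4, the shared partner, differed by -0.30 and -0.35 in metastases (limma adjusted p = 0.269 and 0.141). Smad1 stood at 11.6 to 16.2 FPKM in metastases, 14.7 to 18.6 FPKM in the N134-RHAMMB tumours, and 12.5 to 17.1 FPKM in N134 tumours.

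Extracellular antagonists were tested for 6 of 16 genes. Nbl1, also called DAN, a BMP-binding antagonist, stood at 1.08, 0.339 and 1.11 FPKM in metastases, 2.12, 1.77 and 2.54 FPKM in the N134-RHAMMB tumours, and 2.34, 2.02 and 2.191 FPKM in N134 tumours. All metastases were below all subcutaneous tumours, and Nbl1 fell by 0.80 and 0.82 (SE 0.199 each, limma adjusted p = 0.0407 and 0.0268). The call against N134-RHAMMB tumours was lost without any 1 subcutaneous library (adjusted p = 0.0641 to 0.148), with a pseudocount of 0.1 (adjusted p = 0.0683), with no filter (adjusted p = 0.0534) and with only the groups compared (adjusted p = 0.120). The call against N134 tumours was lost without any 1 N134 tumour (adjusted p = 0.0703 to 0.1) and with only the groups compared (adjusted p = 0.0655). Fstl1, a follistatin-like glycoprotein of mesenchymal cells, fell by 1.16 in metastases against N134 tumours (limma adjusted p = 0.0155), with 18.6 ± 7.25 and 40.6 ± 2.79 FPKM (SD, n = 3 each). Its call was lost without N134 tumour 1 (adjusted p = 0.0677) or 2 (adjusted p = 0.0522). The summed fibroblast markers moved with it: 8 genes added to 174 to 397 FPKM in metastases, 279 to 479 FPKM in the N134-RHAMMB tumours, and 601 to 857 FPKM in N134 tumours. Most of each sum was Col3a1. Dcn did not follow the sum: it was higher in every metastasis than in any N134-RHAMMB tumour and overlapped the N134 tumours. The part of fibroblasts in the differences of Fstl1, Nbl1 and Tgfbr2 was not tested.

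Of the intracellular regulators, 12 of 14 were tested and none passed. Skil, which encodes the SMAD co-repressor SnoN, had the largest difference, -0.64 between metastases and N134 tumours (limma adjusted p = 0.121), and the kinase gene Hipk2 the next, -0.39 (limma adjusted p = 0.240). The ubiquitin ligase gene Smurf2 had 20.7 to 21.9 FPKM in metastases, 20.1 to 20.6 FPKM in the N134-RHAMMB tumours, and 19.7 to 20.6 FPKM in N134 tumours.

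Hamp, which encodes the iron hormone hepcidin and is the best known BMP target of hepatocytes, was the most abundant in metastases of the 5 further target genes that reached the filter, from 13 listed. The gene reached 33.4, 99.1 and 22.1 FPKM in metastases, was listed at 0 in each N134-RHAMMB tumour, and stood at 0.560, 0.291 and 0 FPKM in N134 tumours. Hamp was highest in metastasis 2, where all 4 ID genes and Bmp4 had the lowest level of the metastases. Hes1, a Notch and BMP target, differed by 0.57 and 0.53 and did not pass (limma adjusted p = 0.136 and 0.127). Atoh8, a bHLH gene of hepatocytes that responds to BMP, lay under the filter with 0.754, 0.783 and 1.04 FPKM in metastases and 0.0458 to 0.191 FPKM in the subcutaneous tumours.

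**Figure D4:**
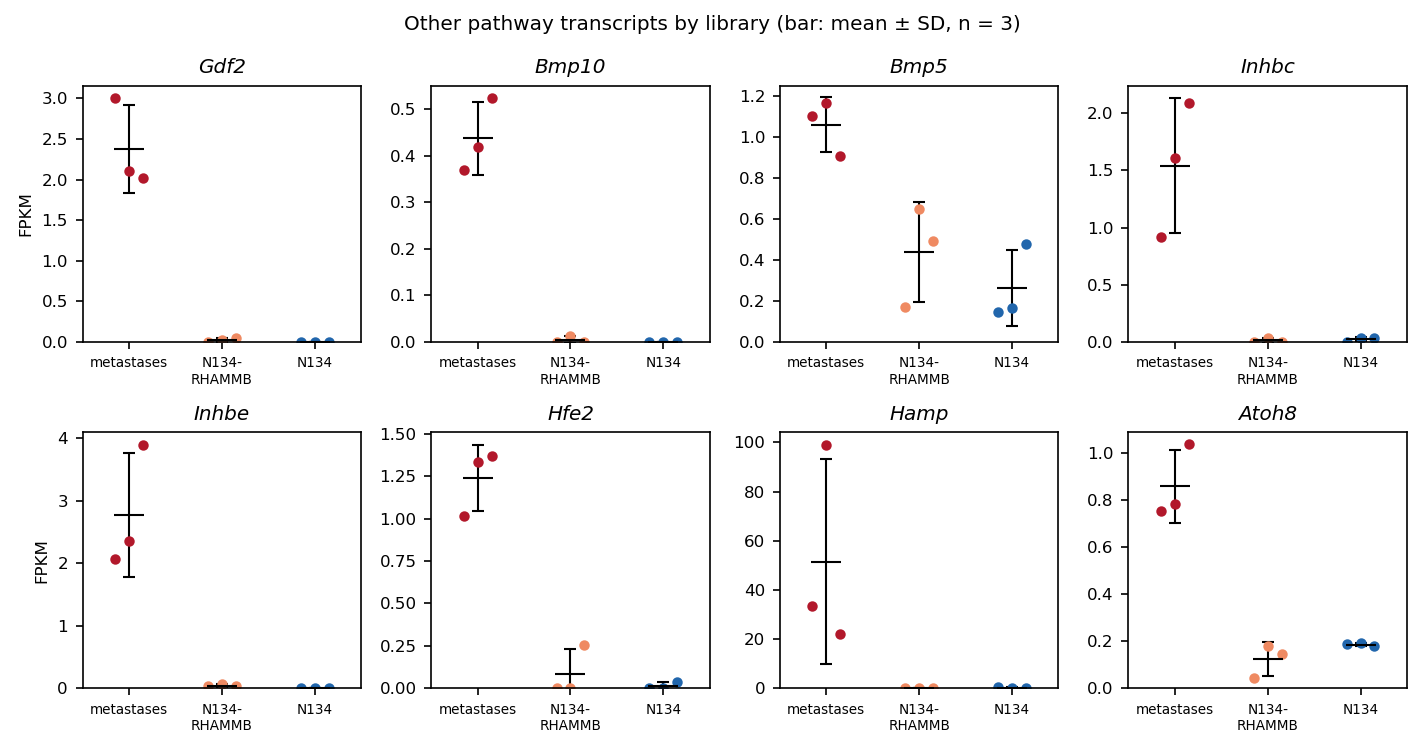
Level in FPKM (vertical axes, each from 0) of 8 further pathway genes in metastases, N134-RHAMMB tumours and N134 tumours; points are libraries and bars are the mean ± SD of 3. All are higher in every metastasis than in any subcutaneous tumour, and Hamp varies most among metastases (22.1 to 99.1 FPKM).

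Between the subcutaneous groups none of the 58 pathway genes passed limma's test. At an unadjusted p below 0.05, 1 was higher in N134-RHAMMB tumours (Acvr2a) and 6 were lower (Acvr1c, Chrd, Fstl1, Tcf3, Tgfb2 and Tgfbr2). The differences of Fstl1 and Tgfbr2 were -0.76 and -0.65 (limma adjusted p = 0.260 and 0.225). Fibroblast, macrophage and erythroid marker sums were also lower in every N134-RHAMMB tumour than in any N134 tumour: fibroblast 279 to 479 against 601 to 857 FPKM, macrophage 214 to 270 against 283 to 487 FPKM, and erythroid (4 genes) 396 to 861 against 973 to 1947 FPKM. Their part in these differences was not tested. Tgfb2 alone passed when only these 6 libraries were fitted (limma adjusted p = 0.0219) or without metastasis 1 (adjusted p = 0.0396), and Fstl1 alone without metastasis 2 (adjusted p = 0.0349). With a weight for each library 10 passed, among them Tgfb2, Fstl1 and Tcf3.

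**Figure D5:**
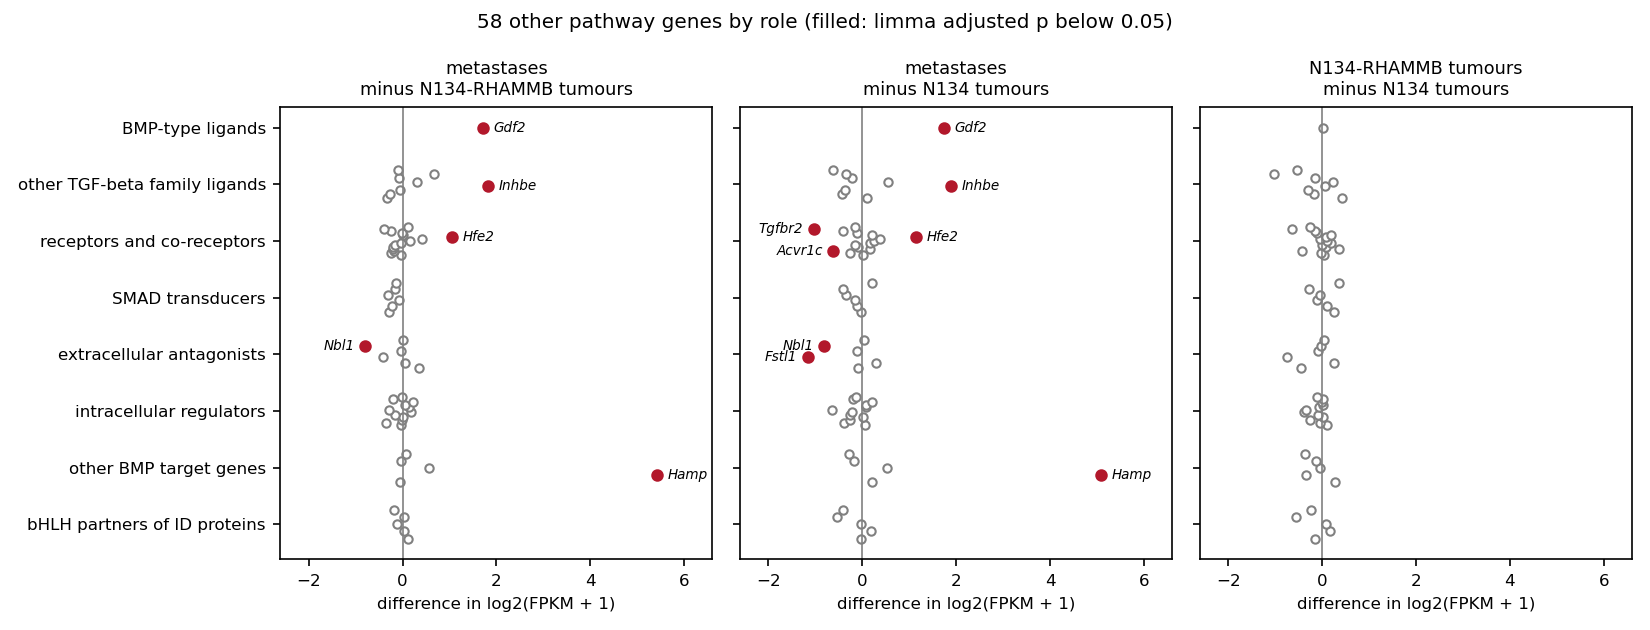
Difference in log2(FPKM + 1) (horizontal axes) of the 58 further pathway genes, grouped by role, in metastases minus N134-RHAMMB tumours, metastases minus N134 tumours, and N134-RHAMMB minus N134 tumours; filled, named points passed limma's test. Gdf2, Inhbe, Hfe2 and Hamp lie to the right in the panels with metastases (all 4 passed the filter only through the metastases, and the size of their differences depends on the pseudocount), and no point is filled in the third panel.

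Markers of other cells differed between the groups. All 10 islet markers reached 1 FPKM in every library. Their sum was 43037 to 48301 FPKM in metastases, 31626 to 37273 FPKM in the N134-RHAMMB tumours, and 37628 to 41602 FPKM in N134 tumours. Most of each sum was Ins2, which was higher in every metastasis than in any subcutaneous tumour. Chgb went the other way, at 159 to 254 FPKM in metastases and 402 to 626 FPKM in the subcutaneous tumours. Ins1, Iapp, Chga, Pcsk1, Pcsk2, Nkx2-2 and Pdx1 overlapped between metastases and both subcutaneous groups. Neurod1 overlapped the N134-RHAMMB tumours and was above the N134 tumours. The 9 hepatocyte markers other than Ttr, which islet tumours also express, added to 3604 to 3838 FPKM in metastases, 10.04 to 11.1 FPKM in the N134-RHAMMB tumours, and 10.2 to 15.5 FPKM in N134 tumours. Hepatocyte RNA was therefore part of every metastasis library, and its part in the Id3, Smad6 and Bmp4 differences was not tested.

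The 8 general endothelial markers added to 96.4 to 126 FPKM in metastases, 110 to 120 FPKM in the N134-RHAMMB tumours, and 110 to 143 FPKM in N134 tumours, with overlap. The 8 markers of liver sinusoidal endothelium added to 59.5 to 80.7 FPKM in metastases, 41.1 to 64.2 FPKM in the N134-RHAMMB tumours, and 63.9 to 68.9 FPKM in N134 tumours. Most of that sum was Lyve1, which overlapped between the groups, and Stab1, which was lower in every metastasis than in any N134 tumour. In contrast 5 of the 8 (Stab2, Clec4g, Oit3, Dnase1l3 and Gpr182) were above all 6 subcutaneous tumours in every metastasis. Stab2, a hyaluronan scavenger receptor, averaged 4.42 FPKM in metastases, 0.162 FPKM in the N134-RHAMMB tumours, and 0.500 FPKM in N134 tumours. Clec4g, a lectin of those cells, stood at 3.70, 5.47 and 4.93 FPKM in metastases and was listed at 0 in all 6 subcutaneous tumours. The 7 stellate cell and pericyte markers added to 108 to 154, 80.2 to 143 and 131 to 176 FPKM in metastases, N134-RHAMMB tumours and N134 tumours, with most of it from Rgs5 and Acta2. Lrat, the retinol-esterifying enzyme of stellate cells, and Hgf, a growth factor they secrete, were above all subcutaneous tumours in every metastasis. The other markers of this list did not share that: Reln, Des, Rgs5 and Acta2 overlapped between metastases and both subcutaneous groups. Cspg4 was lower in every metastasis than in any N134 tumour and overlapped the N134-RHAMMB tumours. Lrat stood at 1.36, 1.28 and 0.495 FPKM in metastases and at no more than 0.0309 FPKM elsewhere, and Hgf at 4.77, 2.76 and 2.72 FPKM in metastases and at no more than 1.30 FPKM elsewhere. The part of sinusoidal endothelium and stellate cells in the Id3, Smad6, Bmp2 and Bmp4 differences was not tested. The 5 Kupffer cell markers added to 4.47 to 11.4 FPKM in metastases, 1.69 to 5.44 FPKM in the N134-RHAMMB tumours, and 2.15 to 16.3 FPKM in N134 tumours. Its members differed in direction. Clec4f stood at 1.69 to 5.22 FPKM in metastases and at no more than 0.149 FPKM elsewhere. Marco stood at 0.211 to 0.349 FPKM in metastases and at 0.688 to 8.82 FPKM elsewhere. Vsig4, Timd4 and Cd5l overlapped between metastases and both subcutaneous groups. Cholangiocyte markers, 5 genes, added to 94.7 to 142 FPKM in metastases, 29.4 to 41.6 FPKM in the N134-RHAMMB tumours, and 29.3 to 47.7 FPKM in N134 tumours. Most of the metastasis sum was Spp1, osteopontin, at 69.2 to 91.3 FPKM in metastases and 2.61 to 20.8 FPKM in the subcutaneous tumours, while Krt7 and Epcam overlapped between the groups. The 7 macrophage markers added to 153 to 236 FPKM in metastases, 214 to 270 FPKM in the N134-RHAMMB tumours, and 283 to 487 FPKM in N134 tumours. The 4 adipocyte markers added to 13.6 to 19.3 FPKM in metastases, 30.4 to 90.2 FPKM in the N134-RHAMMB tumours, and 50.1 to 67.2 FPKM in N134 tumours. In such bulk samples fewer cells of a type and less RNA per cell cannot be told apart.

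N134-RHAMMB tumours 2 and 4 stood apart through skeletal muscle markers, at 147 and 176 FPKM against 11.6 FPKM in tumour 1. Smad7 was 2.11 and 4.94 FPKM in these libraries and 2.04 FPKM in tumour 1. Without tumours 2 and 4 only N134-RHAMMB tumour 1 was left in its group, which then shows no spread, so no test result is given. The log2 differences from N134 tumours were then -0.25 for Id1, 0.39 for Id2, -0.23 for Id3 and -0.01 for Id4.

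Metastasis 2 had lower levels of some of these genes than the other metastases. It had the lowest level of the 3 metastases for 6 of the 10 genes (Id1, Id2, Id3, Id4, Bmp4 and Bambi). Over all genes, 44.9% of 16905 had their lowest metastasis value in that library, so the count is not read as a trait of the set. Id4 was 4.80 FPKM in metastasis 2, against 10.98 and 13.2 FPKM in the others, and Bmp4 was 0.655 against 1.15 and 1.29 FPKM. Without it the log2 difference between metastases and N134-RHAMMB tumours was 0.65 for Id2, where it was 0.43 with it, and 0.65 for Id4, where it was 0.26. For Id3 it was 1.44 without and 1.33 with metastasis 2. The hepatocyte sum of metastasis 2 lay between those of the others, and its fibroblast sum, 174 FPKM, was the lowest of all libraries, where metastases 3 and 1 had 330 and 397 FPKM.

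Genes with the pattern most like that of Id3, Id1, Id2 and Bmp4 were sought among 12396 genes by the root mean square difference of log2(FPKM + 1), each gene centred on its mean over the 9 libraries. Nearest to Id3 were Slc45a3 (0.116), Frzb (0.140), Tnfrsf11b (0.161) and Clca3a1 (0.162), where the pattern of Id3 itself has a root mean square of 0.595. Slc45a3, Tnfrsf11b and Clca3a1 averaged under 1 FPKM in both subcutaneous groups, so their likeness to Id3 depends on the pseudocount. Slc45a3, for example, averaged 1.63 FPKM in metastases, 0.128 FPKM in the N134-RHAMMB tumours, and 0.199 FPKM in N134 tumours. Frzb, a secreted Wnt-binding protein, averaged 10.3 FPKM in metastases, 3.80 FPKM in the N134-RHAMMB tumours, and 4.71 FPKM in N134 tumours. Tnfrsf11b, osteoprotegerin, averaged 2.22, 0.361 and 0.819 FPKM in metastases, N134-RHAMMB tumours and N134 tumours. Nearest to Id1 were Akt1s1 (0.105), Syt1 (0.144), Scml2 (0.159) and Depdc7 (0.173), against a root mean square of 0.338 for Id1. Nearest to Id2 were Pgrmc1 (0.0837), Paqr7 (0.120), Ramp1 (0.134) and Pqlc1 (0.139), against 0.373. Nearest to Bmp4 were Nr1h3 (0.133), Cd59a (0.137), the smooth muscle myosin gene Myh11 (0.145) and Hdhd3 (0.146), against 0.411. Bmp4 itself averaged 1.03, 0.138 and 0.200 FPKM in metastases, N134-RHAMMB tumours and N134 tumours, where Nr1h3 averaged 5.75, 2.91 and 2.88 FPKM. The likenesses to Bmp4 therefore depend on the pseudocount too. These likenesses rest on 9 libraries in 3 groups and follow largely from the group means. For Id3 these include the rise in metastases on which the set was chosen.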

How the data were processed

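Total RNA of 9 tumour samples was sequenced. Per the labels' protocols it was extracted with a Qiagen column kit; the sources used here do not give the library preparation or strand setting. The tools named in the submitters' processing notes are STAR 2.5.2, Cufflinks 2.1.1 and bcl2fastq 2.19, and the build is GRCm38. The authors deposited FPKM for 22053 protein-coding rows with a status word per value, per the file headers. This unit divides by transcript length and library size, so a value also falls when other genes take more of a library. Without strand information, overlapping genes have uncertain values. Rows with a failed estimate (7) and rows repeating a symbol (102, lower mean) were left out.

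Values were log2(FPKM + 1). limma 3.58.1 (R 4.3.3) was fitted to all 9 libraries with 1 mean per group and an intensity trend, on the 12854 genes at 1 FPKM in at least 3 libraries. P-values were 2-sided and adjusted by Benjamini-Hochberg over those genes, with a threshold of 0.05. An exact permutation test of 3 against 3 cannot go below 0.1 and was not used. The method was checked on simulated data. Depth was estimated from single-fragment steps of low genes, and table starts have 1 added. Figures were drawn with matplotlib 3.10.9 in Python 3.11.15.

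The 10 genes, the pathway list, the marker lists and the tests were chosen with earlier results of these data known. From the pathway list, genes are named that passed and averaged 1 FPKM or more in the higher group, up to 6 each way, or else up to 2 with the largest difference per role, and the bHLH partners; 1 gene that the rule selects is not reported here. For Id3, Id1, Id2 and Bmp4, the 4 most alike genes are named. Alternatives were a pseudocount of 0.1, no filter, a mean of at least 5 FPKM, median-of-ratios scaling (factors 0.931 to 1.09), quantile normalization, only the groups compared, weights per library, a block for the replicate number, and each library left out. The fit without N134-RHAMMB tumours 2 and 4 was added after seeing the data.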

Additional observations from a re-analysis of the deposited data

How the results depend on the processing

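Between N134-RHAMMB and N134 tumours, 0 of the 6 genes passed as reported and 2 (Id2 and Smad7) with library weights. Pathway calls between metastases and N134-RHAMMB tumours numbered 5 as reported, 1 at a mean of at least 5 FPKM and 8 with library weights. Those between metastases and N134 tumours numbered 8 as reported, 14 with no filter and 4 at a mean of at least 5 FPKM. Those between the subcutaneous groups numbered 0 as reported, 1 with only the groups compared and 10 with library weights, and ran from 0 to 1 when 1 library was left out. The stricter filter leaves out Gdf2, Hfe2, Inhbe and Nbl1, whose means are lower; the cause of the other changes was not tested.

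The Id4 difference between N134-RHAMMB and N134 tumours was -0.10 as reported and of the opposite sign without N134 tumour 1 (0.02) or without N134-RHAMMB tumour 2 (0.073); over all libraries left out it ran from -0.24 to 0.073. Under all alternatives the differences of Id3 stayed between 1.27 and 1.46 against N134-RHAMMB tumours and between 0.97 and 1.20 against N134 tumours. Smad7 between metastases and N134-RHAMMB tumours ran from -0.24 to 0.33.

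Same-numbered libraries deviated together by correlations of -0.00 to 0.10 over 7 pairs, so the numbers were not taken to pair samples. With the replicate block the calls were 0 of the 6 genes, and 4, 7 and 0 pathway genes in metastases against N134-RHAMMB tumours, metastases against N134 tumours, and N134-RHAMMB against N134 tumours; the calls lost were Nbl1 (adjusted p = 0.127) and Acvr1c (adjusted p = 0.0538). No calls are given for the fit without N134-RHAMMB tumours 2 and 4, since a single library was left in that group. FPKM without counts limit what can be said of Bmp2, Bmp6 and other genes worth a few fragments.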
